A study of Mus musculus with 16 samples.

Results

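The cells described here are immature myeloid progenitors of mouse bone marrow, chosen by UMI counts of 8 genes as *Mpo*+ *Cd34*+ *Ms4a3*- cells. A UMI is 1 counted transcript molecule. Cells were first limited to those showing 750 or more genes, with no more than 10% of their UMIs from the mitochondrial genome. Among these, members were selected on at least 5 UMIs of *Mpo*, at least 1 UMI of *Cd34*, no UMI of *Ms4a3*, *Ly86* or *Csf1r*, and fewer than 30 UMIs of *Camp*, *Ngp* and *Ltf* together. Of 94917 cells, 36925 met the *Mpo* limit, 17583 of those also held *Cd34*, and 3637 of those had no UMI of *Ms4a3*. The remaining limits left 2116 cells, which were 2.23% of all cells kept. The levels of these 8 genes within the gate follow from the rule, so they are given only as a description and none of them was tested.

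Lineage-negative marrow cells came from 16 C57BL/6 mice of 6 to 12 weeks of age, 4 in each of 4 groups, and were sequenced as 3′ single-cell libraries. WT mice carried floxed *Tet2* alleles without Cre (*Tet2*fl/fl), and *Tet2*-KO mice carried Vav-Cre, which is driven by a promoter active across the blood system. Both genotypes received intraperitoneal IL1β at 500 ng per mouse and day, or vehicle, for 5 weeks before the marrow was taken. Each of 8 libraries pooled 2 mice of 1 group under separate hashtag antibodies, so no library held more than 1 group and each group had 2 libraries, and the sex of the mice is not in the labels. The 3′ reads of *Tet2* (chr3:133463679-133545139, minus strand, GRCm38) do not check the deletion, and its level in the gated cells of the 4 groups, in CPM (UMI counts scaled to one library total for all mice), ran from 35.6 to 55.5, 52.0 to 101, 44.7 to 73.3 and 64.1 to 99.2 in WT vehicle, WT IL1β, *Tet2*-KO vehicle and *Tet2*-KO IL1β mice.

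Hashtags gave 1467 of the 2116 members to 1 mouse, while 572 had no call and 77 carried both hashtags of their pool. The part assigned was uneven between libraries. In the WT vehicle libraries 116 and 24 of 184 members, and 102 and 107 of 237, went to their mice. In the WT IL1β libraries these were 123 and 44 of 241, and 134 and 36 of 374. They were 105 and 25 of 306, and 165 and 191 of 398, with *Tet2*-KO vehicle. With *Tet2*-KO IL1β they were 26 and 138 of 234, and 51 and 80 of 142. Mice contributed 24 to 191 gated cells and 117494 to 997895 UMIs each, and all values per mouse rest on the 1467 assigned cells. A UMI count of 0 does not show that a gene is absent, so membership depends on depth. With cells thinned to 3000 UMIs and shallower cells left out, the gated share was higher in every mouse. It went from 3.44 to 3.49% in WT vehicle mouse 2 and from 3.08 to 5.19% in *Tet2*-KO IL1β mouse 2. Gated cells had median UMIs of 4736 and 5824 in the WT vehicle and 4506 and 3815 in the WT IL1β libraries. The members with both hashtags made up 3.64% of the gate, against 4.15% of all cells kept, and 148 members held more than 2 times the median UMIs of the gated cells of their library. Between libraries, 54 members shared their barcode with a cell of another library, and no barcode was shared between 2 members. The p-values below measure the spread between these mice. In the permutation tests and the main fits the 2 mice of a library were treated as independent, although libraries were nested in groups.

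Immature myeloid progenitors stand between multipotent progenitors and the granulocyte and monocyte lineages. *Mpo* encodes myeloperoxidase, a heme enzyme of the primary (azurophil) granules that form early in the neutrophil lineage, and *Cd34* encodes a sialomucin of progenitor surfaces. *Ms4a3* is a membrane gene switched on at the granulocyte-monocyte progenitor stage, *Csf1r* and *Ly86* accompany the monocyte path, and *Camp*, *Ngp* and *Ltf* encode proteins of the later, specific granules. IL1β signals through the receptor pair IL1R1 and IL1RAP and the adaptor MYD88 to NF-κB, whose targets include its own inhibitors, and it is known for driving marrow progenitors toward myeloid cells.

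The members held a median of 10 *Mpo* UMIs (5 to 67), 2 *Cd34* UMIs (1 to 12), 4846.5 UMIs in all and 1974 detected genes. Proteases stored in primary granules were detected in many of the members. With every cell thinned to 3000 UMIs, which left out 267 shallower members, *Prtn3* (proteinase 3) was found in 89.9% of 1849 cells, *Ctsg* (cathepsin G) in 79.6% and *Elane* (neutrophil elastase) in 41.9%. In unthinned cells these shares were 95.7%, 86.6% and 54.0%. Erythroid cells, which should lack these proteases, were used as a guide to the background of free RNA. Before thinning they were deeper than the members, so their thinned shares may understate the background in members. In 14740 cells with at least 2 UMIs of *Klf1*, at least 1 of *Car1* and none of *Cd34*, 14660 of which were left after thinning from a median of 10660 UMIs, the shares were 14.3% for *Prtn3*, 8.69% for *Ctsg* and 10.8% for *Elane*. The alarmin gene *S100a8*, a product of later neutrophils, was found in 32.2% of members and 24% of the erythroid cells.

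Early lineage regulators were detected in parts of the gate. *Sox4*, a transcription factor of immature progenitors, had a UMI in 71.3% of thinned members, the receptor gene *Kit* in 39.7%, *Irf8*, a regulator of the monocyte and dendritic cell path, in 36.0%, *Spi1* (PU.1) in 29.5%, *Flt3* in 21.8%, *Cebpa* in 21.1% and *Gata2* in 21.0%. The mast cell and basophil genes *Cpa3* and *Mcpt8* appeared in 21.3% and 16.4%. Free RNA from other cells may add to the shares of these genes. No erythroid background is given for them here, and its part was not tested. Detection of these genes was uneven across cells. *Cpa3* was found in 43.0% of the 388 cells with *Gata2* and in 15.5% of the other 1461, and *Gata2* in 11.4% of the 666 cells with *Irf8* against 26.4% of the other 1183. *Irf8* was found in 49.8% of the 404 *Flt3*-containing cells and in 32.2% of the other 1445. These are descriptions over cells that share libraries, with no test.

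To place the gate among its neighbours, the same cells were set beside granulocyte progenitors (at least 5 UMIs of *Elane*, at least 1 of *Ms4a3*, under 30 of *Camp*, *Ngp* and *Ltf*, 25117 cells) and multipotent cells (at least 1 UMI each of *Flt3* and *Cd34*, fewer than 5 of *Mpo*, none of *Ms4a3*, 2092 cells). No member lay in either. In the 8 vehicle mice, *Elane* averaged 345 ± 116 CPM (SD, n = 8) in the gate, 6313 ± 491 in granulocyte progenitors, which were chosen on it, and 45.1 ± 24.2 in multipotent cells. *Prtn3* stood at 1591 ± 356 CPM, 7403 ± 914 CPM and 395 ± 103 CPM in the same order. *Cebpe*, which drives late granule genes, averaged 11 ± 5.81 CPM in the gate and 116 ± 29.6 CPM in granulocyte progenitors, while *Cebpa*, needed for the step to granulocyte-monocyte progenitors, stood at 75.9 ± 20.6, 70.6 ± 6.08 and 24.9 ± 4.00 CPM in gated, granulocyte and multipotent cells. On the multipotent side, *Flt3* averaged 68.3 ± 13.6 CPM in the gate and 346 ± 45.4 CPM in multipotent cells, which were chosen on it, and *Dntt* (terminal transferase, a lymphoid progenitor gene) 26.5 ± 18.6 and 582 ± 136 CPM. *Hlf*, a stem cell factor, averaged 50.5 ± 16.0, 8.08 ± 2.33 and 131 ± 53.9 CPM. No test was run on these levels, because each gate was cut from the same counts. The 16 markers of immature myeloid progenitors, 2 of which (*Mpo* and *Cd34*) chose the cells, summed to 8343 to 13533 CPM per mouse.

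**Figure D1:**
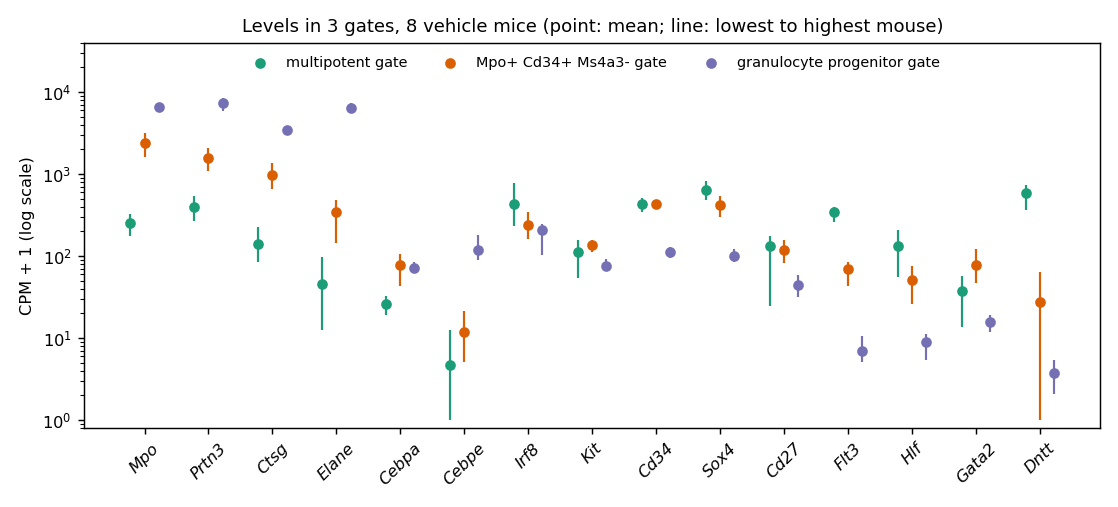
Levels of 15 genes in CPM plus 1 (log axis) in the multipotent gate, the *Mpo*+ *Cd34*+ *Ms4a3*- gate and the granulocyte progenitor gate of the 8 vehicle mice. Points are means over mice and vertical lines run from the lowest to the highest mouse. *Elane* is at 345, 45.1 and 6313 CPM in the *Mpo*+ *Cd34*+ *Ms4a3*-, multipotent and granulocyte progenitor gates, the last of which was chosen on it.

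Against all other assigned cells of the same vehicle mice, the genes that stood highest in the gate after *Cd34* were *Adgrl4*, *Sox4*, *Adgrg1* and *Cd27*, with mean log2 ratios of 1.46, 1.44, 1.44 and 1.39 on CPM plus 10. *Adgrg1* (GPR56) and *Cd27* are surface genes of stem and early progenitor cells. The lowest, apart from the genes of the rule, were *S100a8*, *Jchain*, *S100a9* and *Lcn2*, at mean log2 ratios of -3.98, -3.87, -3.78 and -3.19. Split by *Mpo* UMIs, the count that the rule used, cells differed in other genes and also in depth. Their median UMIs were 3810, 4040 and 5116 in the order given next, and no test was run on this split. Cells that met all other limits with 3 to 4 *Mpo* UMIs (865 cells) held 63.7 CPM of *Elane* and 144 CPM of *Hlf*. Members just inside, with 5 to 6 UMIs (501 cells), held 114 CPM of *Elane* and 99.3 CPM of *Hlf*, and those with 7 or more (1615 cells) 522 CPM and 47.4 CPM.

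Markers of other cells were present in the summed counts, and some sums were far higher in single mice. Summed over 7 genes, megakaryocyte markers ran from 139 to 171 CPM in WT vehicle, 228 to 3125 in WT IL1β, 163 to 10383 in *Tet2*-KO vehicle and 179 to 8038 CPM in *Tet2*-KO IL1β mice. Eosinophil markers (7 genes) reached 7.47 and 12.7 CPM in the vehicle groups of WT and *Tet2*-KO, and 1114 and 1126 CPM in the IL1β groups. Erythroid markers (11 genes) ran from 928 to 2588, 1102 to 3688, 639 to 2138 and 417 to 3661 CPM over the 4 groups in the same order, and monocyte and macrophage markers (10 genes) from 393 to 723, 489 to 1005, 332 to 746 and 437 to 535 CPM. Basophil and mast cell markers (8 genes) ran from 464 to 1396, 868 to 1933, 201 to 592 and 731 to 2083 CPM, dendritic cell markers (10 genes) from 366 to 603, 361 to 479, 438 to 535 and 305 to 463 CPM. B and lymphoid progenitor markers (11 genes) ran from 76.6 to 476, 133 to 982, 12.3 to 314 and 45.6 to 125 CPM, and the 8 stem cell markers from 67.2 to 163, 94.5 to 186, 104 to 164 and 140 to 231 CPM. T and NK cell markers stayed at or below 44.5 CPM in every mouse, with *Cd3e* and *Gzma* at 0. The part of these cells in the results below was not tested beyond leaving out cells of high UMI count.

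The first question was whether IL1β or loss of *Tet2* changed how many such cells were in the marrow suspension. As a share of assigned cells, the gate held 2.79, 3.44, 3.13 and 2.79% in the 4 WT vehicle mice and 1.91, 1.77, 2.54 and 2.53% in the 4 WT IL1β mice. The groups did not overlap, and the means were 3.04% ± 0.311 and 2.19% ± 0.407 (SD, n = 4 each), a difference of -0.847 percentage points. In the two-sided exact permutation test this gave p = 0.0286, the smallest that 4 against 4 mice allow, and 0.114 after adjustment over 4 comparisons. The test does not take the shared libraries into account, and the WT IL1β mice of 1 library stood at 1.91 and 1.77% and those of the other at 2.54 and 2.53%. The difference depended on how cells were given to mice, and the part of the members given to a mouse was uneven between libraries. With a hashtag ratio rule it was -0.0583 percentage points, from means of 2.26 and 2.20% (exact permutation p = 0.971). With all cells of each pool, called or not, the shares were 2.15 and 2.05% in the WT vehicle pools and 1.66 and 2.65% in the WT IL1β pools, a difference of 0.0575 percentage points in the other direction.

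In *Tet2*-KO mice the shares were 2.49, 1.99, 2.96 and 4.25% with vehicle and 1.82, 3.08, 1.17 and 1.76% with IL1β. Here the groups overlapped, and the difference of -0.962 percentage points gave an exact permutation p of 0.171 (adjusted 0.343). It was -0.520 without *Tet2*-KO vehicle mouse 4, -0.554 with the hashtag ratio rule and -0.386 with cells thinned to 3000 UMIs. The genotypes differed by -0.116 percentage points with vehicle (exact permutation p = 0.886, adjusted 0.886) and by -0.231 with IL1β (exact permutation p = 0.543, adjusted 0.724). With all cells of each vehicle pool the *Tet2*-KO shares of 2.68 and 2.73% were above the WT shares of 2.15 and 2.05%, a difference of 0.607 percentage points in the other direction. The binomial 95% interval (Clopper-Pearson) of a single mouse was as wide as 2.22 to 5.07% in the second WT vehicle mouse, which had 24 gated of 698 assigned cells. Intervals of this kind cover counting error only.

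Set against the granulocyte progenitors of the same mouse, gated cells were fewer in every WT IL1β mouse than in any WT vehicle mouse. The log2 ratio was -2.77, -3.22, -3.15 and -3.02 in WT vehicle and -4.45, -4.34, -3.69 and -3.85 in WT IL1β mice, with a difference of -1.04 (exact permutation p = 0.0286, adjusted 0.114). In *Tet2*-KO mice the ratio ran from -4.74 to -2.34 with vehicle and from -5.24 to -3.17 with IL1β, a difference of -1.0 (exact permutation p = 0.257, adjusted 0.429). With the hashtag ratio rule the WT difference was -0.916 (exact permutation p = 0.143), and without *Tet2*-KO vehicle mouse 4 the *Tet2*-KO difference was -0.605. The genotype differences were -0.484 with vehicle and -0.444 with IL1β, with exact permutation p of 0.429 and 0.4, both 0.429 after adjustment. With vehicle the difference was -0.0781 without *Tet2*-KO vehicle mouse 2 and -0.880 without mouse 4 (exact permutation p = 0.0286, adjusted 0.0571), and 0.0475 with the hashtag ratio rule. With IL1β it was -0.897 without *Tet2*-KO IL1β mouse 2 (exact permutation p = 0.0286, adjusted 0.0571) and -0.206 without mouse 3. A change in this ratio does not show which of the 2 populations changed.

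**Figure D2:**
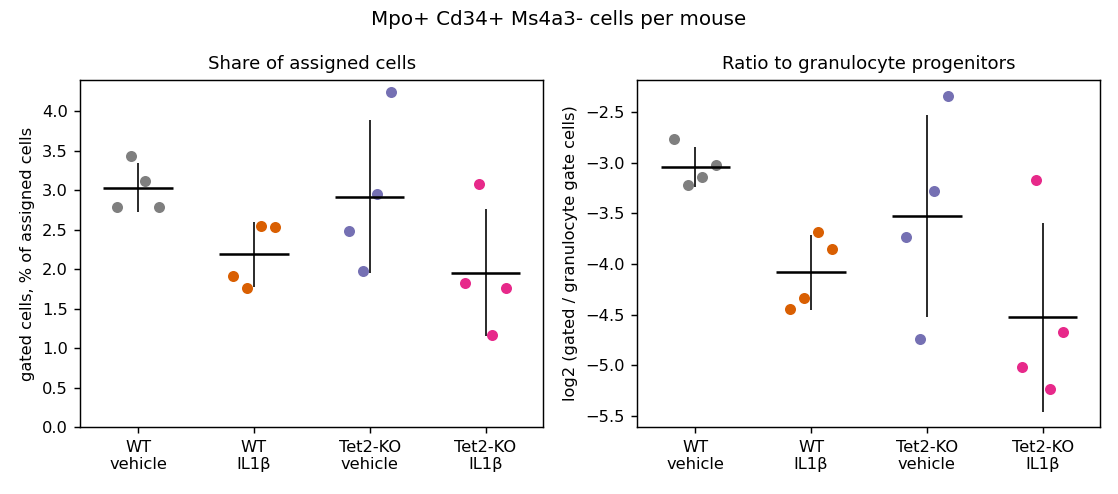
Gated cells per mouse as a percentage of assigned cells (left) and as log2 of their ratio to granulocyte progenitor gate cells (right). Each point is 1 mouse, horizontal lines are group means and vertical lines 1 SD of 4 mice; the WT IL1β points lie below all WT vehicle points in both panels, while the *Tet2*-KO groups overlap.

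The next question was what IL1β changed within the gated cells. UMIs were summed per mouse and 7692 genes were tested with edgeR's quasi-likelihood test, adjusted over all of them at a threshold of 0.05. In WT mice 156 genes rose with IL1β (2.03% of those tested) and 338 fell (4.39%), and in *Tet2*-KO mice 365 rose (4.75%) and 552 fell (7.18%). The WT count was 240 genes without WT vehicle mouse 1 and 192 without WT IL1β mouse 3. The *Tet2*-KO count was 399 without *Tet2*-KO vehicle mouse 4, 509 without *Tet2*-KO vehicle mouse 3 and 589 without *Tet2*-KO IL1β mouse 1. Without the members of high UMI count, 635 and 1111 genes were called. The 2 comparisons have no mice in common, and 82 genes rose in both, which is 52.6% of the WT list and 22.5% of the *Tet2*-KO list. For genes that fell, 226 were shared, or 66.9% and 40.9%. Of the 494 genes called in WT, 484 had the same sign in *Tet2*-KO, and of the 917 called in *Tet2*-KO, 885 had the same sign in WT. Sign agreement over all genes tested was not counted, so these numbers are not a result about the called genes.

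The genes of largest fold were named only where vehicle and IL1β mice of that genotype did not overlap, so the lack of overlap in these follows from their choice. The named genes that rose most included feedback inhibitors and targets of NF-κB. *Nfkbia* (chr12:55489410-55492647, minus strand, GRCm38) encodes IκBα, which holds NF-κB in the cytoplasm. It stood at 47.2, 53.3, 35.2 and 21.9 CPM in the WT vehicle mice and at 88.7, 765, 431 and 488 CPM in the WT IL1β mice, and at 31.4, 36.6, 45.9 and 32.3 CPM with vehicle and 883, 269, 739 and 411 CPM with IL1β in *Tet2*-KO mice. Every IL1β mouse was above every vehicle mouse, although WT IL1β mouse 1 stood far below the other IL1β mice. The log2 change was 3.56 ± 0.66 (SE, adjusted p = 0.00652) in WT and 3.92 ± 0.63 (SE, adjusted p = 0.00175) in *Tet2*-KO mice.

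*Tnfaip3* (chr10:19000910-19015657, minus strand), which encodes A20, a ubiquitin editing enzyme that stops the signal to NF-κB, was close to absent without IL1β. Its levels were 6.74, 8.89, 7.66 and 0 CPM in WT vehicle, 67.9, 211, 149 and 119.9 CPM in WT IL1β, 10.5, 0, 3.72 and 7.55 CPM in *Tet2*-KO vehicle and 271, 81.3, 219 and 129.6 CPM in *Tet2*-KO IL1β mice. The treated and untreated mice did not overlap in either genotype, and the log2 change was 4.66 ± 0.72 (SE, adjusted p = 0.00230) and 4.62 ± 0.64 (SE, adjusted p = 6.58e-04). *Nfkbiz* (chr16:55811375-55838899, minus strand), an atypical nuclear IκB, rose in the same way, by 3.55 ± 0.84 (SE, adjusted p = 0.0264) and 3.28 ± 0.75 (SE, adjusted p = 0.0148) on the log2 scale. Its lowest IL1β mouse was WT mouse 1 at 81.8 CPM and its highest vehicle mouse was *Tet2*-KO mouse 1 at 76.7 CPM. Its WT call was lost on leaving out any of 6 mice, 4 of them WT vehicle.

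The promoters of *Nfkbia*, *Tnfaip3*, *Cxcl2* and *Cxcl10* are printed here because all of these rose in *Tet2*-KO mice, and *Nfkbia* and *Tnfaip3* in WT mice too. That of *Nfkbiz* is not used here. Capitals mark matches to a κB-like pattern, GGGNNTTCC or GGGNNNTTCC on either strand, found by searching from 250 bases before to 50 bases after the RefSeq start (GRCm38.p6). Overlapping matches are counted singly. Of 32851 promoters searched in the same window, 3200 (9.74%) held the pattern. A match describes the letters and is not evidence of binding.
Nfkbia, chr12:55492598-55492897, minus strand: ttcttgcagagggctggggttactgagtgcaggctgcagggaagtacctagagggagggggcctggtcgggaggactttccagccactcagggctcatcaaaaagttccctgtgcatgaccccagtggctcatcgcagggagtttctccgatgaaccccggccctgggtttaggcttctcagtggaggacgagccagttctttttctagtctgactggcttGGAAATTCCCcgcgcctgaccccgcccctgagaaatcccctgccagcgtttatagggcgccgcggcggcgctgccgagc
Tnfaip3, chr10:19015361-19015660, minus strand: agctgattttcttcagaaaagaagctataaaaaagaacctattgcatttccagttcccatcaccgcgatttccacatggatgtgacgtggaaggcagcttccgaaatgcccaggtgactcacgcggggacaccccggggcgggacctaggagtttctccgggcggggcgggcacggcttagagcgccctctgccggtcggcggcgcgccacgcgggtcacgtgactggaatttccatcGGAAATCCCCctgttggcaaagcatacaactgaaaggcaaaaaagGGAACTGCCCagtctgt
Cxcl2, chr5:90903649-90903948, plus strand: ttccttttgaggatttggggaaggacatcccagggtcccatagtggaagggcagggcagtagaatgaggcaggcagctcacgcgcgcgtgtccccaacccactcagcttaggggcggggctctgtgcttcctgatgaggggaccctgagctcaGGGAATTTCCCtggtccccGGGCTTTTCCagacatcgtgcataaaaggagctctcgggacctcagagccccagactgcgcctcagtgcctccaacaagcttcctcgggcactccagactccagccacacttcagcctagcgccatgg
Cxcl10, chr5:92348840-92349139, minus strand: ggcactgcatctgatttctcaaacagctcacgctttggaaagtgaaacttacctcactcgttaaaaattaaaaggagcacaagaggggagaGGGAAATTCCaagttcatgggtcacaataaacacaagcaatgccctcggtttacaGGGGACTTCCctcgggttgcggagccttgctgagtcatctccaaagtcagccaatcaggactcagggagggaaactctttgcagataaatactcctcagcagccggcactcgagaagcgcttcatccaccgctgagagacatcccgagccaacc
The match in *Nfkbia* began at position -29 from the start. Those of *Tnfaip3* began at -12 and 33, those of *Cxcl2* at -97 and -78, and those of *Cxcl10* at -159 and -104. Another RefSeq start of *Tnfaip3* (window chr10:19011914-19012213, minus strand), whose sequence is not printed here, held a match at -90. The window of *Rel* also held the pattern, at -91, and that of *Birc3* did not.

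Chemokine genes were among the largest changes in *Tet2*-KO cells. *Cxcl2* (chr5:90903871-90905938, plus strand), a neutrophil attractant, stood at 15.7, 4.06, 0 and 0 CPM in *Tet2*-KO vehicle and 217, 36.4, 284 and 101 CPM in *Tet2*-KO IL1β mice, with no overlap and a log2 change of 5.05 ± 1.14 (SE, adjusted p = 0.0134). In WT mice it stood at 3.37, 0, 0 and 0 CPM with vehicle and 8.32, 127, 19.9 and 59.9 CPM with IL1β. The WT vehicle mice held 2 *Cxcl2* UMIs in all, so the ratio of summed CPM was 37.8 with a counting interval (95%) of 10.1 to 318, and the adjusted p was 0.157. *Cxcl10* (chr5:92346638-92348889, minus strand), an interferon- and NF-κB-responsive chemokine, was at 0, 0, 1.24 and 0 CPM in *Tet2*-KO vehicle and 104, 16.0, 127 and 38.5 CPM in *Tet2*-KO IL1β mice. That rests on a single UMI in the vehicle mice, and the ratio of 132 had a counting interval of 23.2 to 5285 (adjusted p 0.0199). In WT mice *Cxcl10* went from 0, 0, 1.53 and 1.46 to 2.77, 127, 42.6 and 71.9 CPM, with 2 UMIs in the vehicle mice, a ratio of 46.9 with a counting interval of 12.6 to 394 and an adjusted p of 0.0658. Both *Cxcl2* and *Cxcl10* lost their *Tet2*-KO call without *Tet2*-KO vehicle mouse 3 or mouse 4, with the pool as a random effect in limma, and with a limit of at least 10 *Mpo* UMIs.

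*Pmaip1*, which encodes the BH3-only death protein NOXA, had the largest rise among the called genes named in WT mice. It was at 5.05, 0, 0 and 1.46 CPM in WT vehicle and 66.5, 93.0, 66.5 and 36.0 CPM in WT IL1β mice, and at 24.4, 8.13, 4.96 and 3.23 CPM with vehicle and 98.6, 41.7, 61.6 and 40.5 CPM with IL1β in *Tet2*-KO mice. The log2 changes were 4.91 ± 0.64 (SE, adjusted p = 6.52e-05) in WT and 2.51 ± 0.47 (SE, adjusted p = 0.00157) in *Tet2*-KO mice. The difference between these changes was -2.39 ± 0.97 (SE, adjusted p = 0.9998), which did not pass. The WT vehicle mice held 4 *Pmaip1* UMIs in all, and the WT ratio of summed CPM was 36.9 with a counting interval of 14.1 to 138. *Bcl2* (chr1:106538178-106714274, minus strand), the founding survival gene, fell by 0.75 ± 0.18 (SE, log2, adjusted p = 0.00683) and 0.54 ± 0.18 (SE, log2, adjusted p = 0.0432). Of 13 tested survival and death genes 1 rose and 1 fell in WT (2.03% and 4.39% over all genes), and 2 rose and 3 fell in *Tet2*-KO mice (4.75% and 7.18%), the other risers and fallers in *Tet2*-KO being *Xiap*, an inhibitor of caspases, at 0.62, and the death genes *Bax* at -0.93 and *Bad* at -0.78 (log2).

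**Figure D3:**
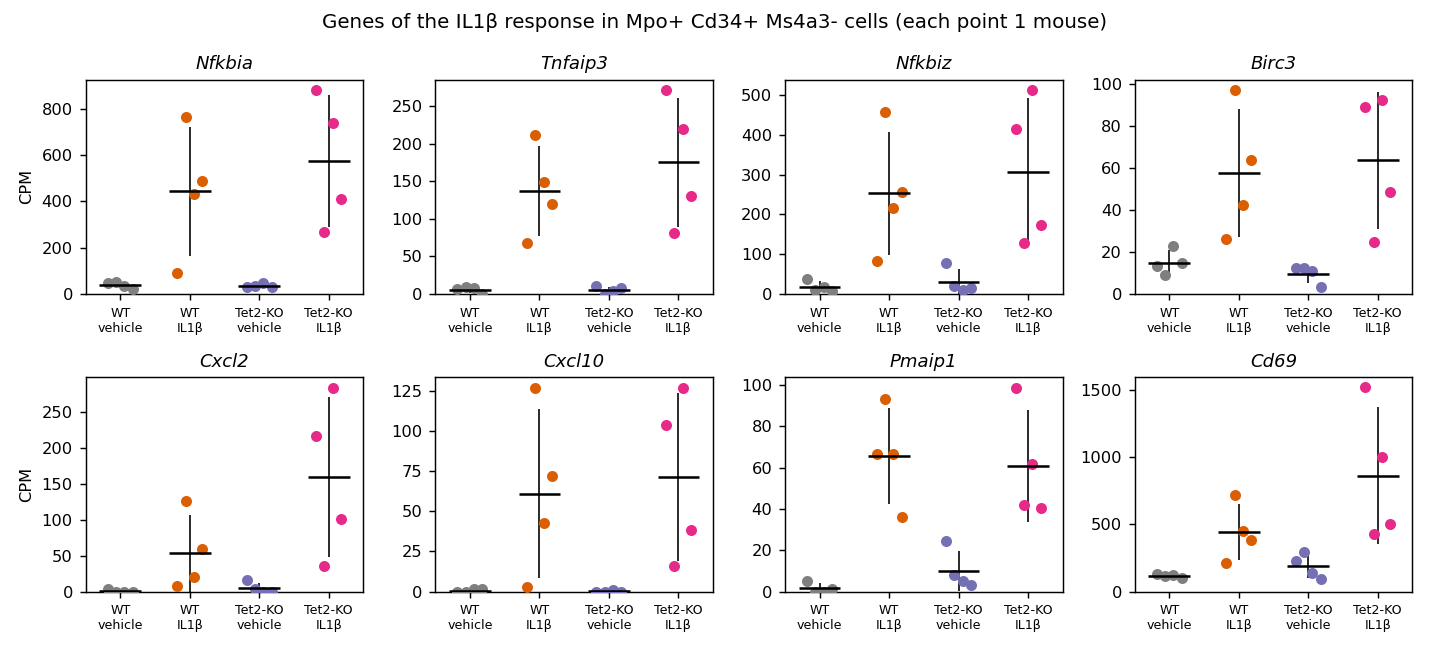
Levels (CPM) of 8 genes of the IL1β response in *Mpo*+ *Cd34*+ *Ms4a3*- cells, 1 point per mouse in each of the 4 groups, with group means (horizontal lines) and 1 SD of 4 mice (vertical lines). *Nfkbia*, *Tnfaip3*, *Nfkbiz*, *Birc3*, *Cxcl2*, *Cxcl10* and *Pmaip1* show no overlap between vehicle and IL1β mice of a genotype, and *Cd69* shows none in WT mice. *Cxcl2* and *Cxcl10* rest on few UMIs in vehicle mice. The lowest WT IL1β mouse for *Nfkbia* sits at 88.7 CPM.

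Of 34 IL1 pathway and NF-κB genes, 22 passed the filter on low counts. In WT mice 4 of these rose and none fell, and in *Tet2*-KO mice 9 rose and none fell, beside 2.03% and 4.75% higher over all genes, with median log2 changes of 0.50 and 0.51 beside 0.03 and 0.02 over all genes tested. *Tnfaip3* held 10 and 16 UMIs in all in WT and *Tet2*-KO vehicle mice, and *Nfkbie* 14 and 13. Such genes can pass the filter through the IL1β mice and could then hardly be called as falling. The lack of falls and the positive medians are therefore partly fixed in advance. In both genotypes *Rel* (chr11:23736847-23770970, minus strand), an NF-κB subunit, rose, by 1.14 ± 0.29 (SE, adjusted p = 0.00980) and 0.94 ± 0.26 (SE, adjusted p = 0.0141). The subunit genes *Nfkb1* and *Rela* rose in *Tet2*-KO mice by 0.67 ± 0.16 (SE, adjusted p = 0.00472) and 0.69 ± 0.24 (SE, adjusted p = 0.0475), the inhibitor *Nfkbie* by 2.70 ± 0.59 (SE, adjusted p = 0.00418), the A20 partner *Tnip1* by 1.43 ± 0.31 (SE, adjusted p = 0.00190) and *Birc3* (chr9:7848699-7873186, minus strand), a ubiquitin ligase of the TNF receptor complex, by 2.60 ± 0.55 (SE, adjusted p = 0.00624). In WT mice *Birc3* changed by 1.57 ± 0.52 (SE, adjusted p = 0.0836) and *Nfkbie* by 1.53 ± 0.65 (SE, adjusted p = 0.179), neither past the threshold. The signal carriers *Irak1*, *Irak4*, *Traf6* and *Ikbkg* passed in neither genotype, with log2 values between -0.17 and 0.56. The receptor genes *Il1r1* (chr1:40225080-40317257, plus strand) and *Il1rap* were below the filter, with a UMI in 2.76% and 2.65% of thinned members against 0.825% and 1.35% of the erythroid cells.

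The share of cells with these transcripts was higher with IL1β in both genotypes. Thinning left out 24 WT vehicle, 151 WT IL1β, 62 *Tet2*-KO vehicle and 30 *Tet2*-KO IL1β members and kept 397, 464, 642 and 346, so the groups were not trimmed alike. In thinned cells *Nfkbia* was found in 8.82% of members with vehicle and 61.4% with IL1β in WT, and in 8.88% and 61.8% in *Tet2*-KO mice. For *Tnfaip3* the shares were 1.26, 33.2, 1.25 and 33.5% in WT vehicle, WT IL1β, *Tet2*-KO vehicle and *Tet2*-KO IL1β cells. *Cxcl2* was found in 0.252, 11.4, 0.623 and 17.9% of cells and *Pmaip1* in 1.01, 19.0, 2.02 and 16.5%. The erythroid cells of the same groups held *Nfkbia* in 2.90, 41.3, 4.06 and 38.0%, *Tnfaip3* in 0.645, 14.2, 0.759 and 11.4%, *Cxcl2* in 0.115, 0.953, 0.290 and 0.337% and *Pmaip1* in 0.161, 0.693, 0.134 and 0.421%. The erythroid shares of *Nfkbia* and *Tnfaip3* were thus higher with IL1β as well. No test was made over cells.

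Other genes that rose with IL1β in WT mice included *Gda* (guanine deaminase) at 2.31 ± 0.48 (SE, adjusted p = 0.00263), *Selp* (P-selectin) at 2.13 ± 0.54 (SE, adjusted p = 0.0207), the cAMP phosphodiesterase *Pde4b* at 1.97 ± 0.52 (SE, adjusted p = 0.0431), the SMAD co-repressor *Skil* at 1.96 ± 0.56 (SE, adjusted p = 0.0350) and *Ebi3*, a cytokine subunit shared by IL27 and IL35, at 1.55 ± 0.37 (SE, adjusted p = 0.00534). *Selp* is also a platelet and megakaryocyte gene, and the summed megakaryocyte markers given above did not overlap between WT vehicle (139 to 171 CPM) and WT IL1β mice (228 to 3125 CPM). Their part in the *Selp* value was not tested. *Cd69* (chr6:129267325-129275436, minus strand), an early activation antigen, stood at 129.7, 116, 126 and 101 CPM in WT vehicle and 215, 718, 449.5 and 384 CPM in WT IL1β mice without overlap, and changed by 1.87 ± 0.51 (SE, adjusted p = 0.0485). The remaining leading genes in *Tet2*-KO mice were the A20-binding *Tnip3* at 5.57 ± 1.30 (SE, adjusted p = 0.0158), the guanylate-binding *Gbp5* at 5.31 ± 1.36 (SE, adjusted p = 0.0253), *Gadd45b* at 2.81 ± 0.82 (SE, adjusted p = 0.0433) and *Csrnp1* at 2.55 ± 0.72 (SE, adjusted p = 0.0349). The *Tet2*-KO vehicle mice held 4 *Tnip3* and 6 *Gbp5* UMIs in all, with ratios of summed CPM of 49.6 (counting interval of 19.0 to 185) and 37.7 (16.9 to 104). In WT mice these ratios were 23.1 (9.59 to 72.8) for *Tnip3* and 22.0 (10.9 to 52.0) for *Gbp5*, from 5 and 8 vehicle UMIs, and 5.66 for *Gadd45b* and 5.04 for *Csrnp1*, with adjusted p of 0.0712, 0.0730, 0.178 and 0.164. The calls of *Pde4b* and *Cd69* in WT and *Gadd45b* in *Tet2*-KO mice were lost on leaving out any of 11 to 13 of the 16 mice. The calls of *Selp* and *Skil* were lost on leaving out any of 6 or 7 WT mice.

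Of 22 tested genes of cytokine and growth factor receptors, 3 rose in WT, beside 2.03% of all genes, namely the interferon-γ receptor chains *Ifngr1* at 0.94 ± 0.19 (SE, adjusted p = 0.00118) and *Ifngr2* at 1.02 ± 0.33 (SE, adjusted p = 0.0481), and the GM-CSF receptor chain *Csf2ra* at 1.12 ± 0.36 (SE, adjusted p = 0.0471). A further 3 rose in *Tet2*-KO mice, beside 4.75% of all genes, the IL3 receptor chain *Il3ra* at 1.05 ± 0.23 (SE, adjusted p = 0.00173), *Kit* (chr5:75574916-75656722, plus strand), the stem cell factor receptor, at 0.63 ± 0.17 (SE, adjusted p = 0.00850) and *Flt3* (chr5:147330741-147400489, minus strand) at 0.66 ± 0.19 (SE, adjusted p = 0.0169). None fell in either. The G-CSF receptor gene *Csf3r*, with 40.2 ± 11.5 CPM in vehicle mice, changed by 0.23 ± 0.26 (SE, adjusted p = 0.683) and 0.19 ± 0.25 (SE, adjusted p = 0.676), neither past the threshold. Among 12 JAK-STAT and SOCS genes, none passed in WT, and the kinase gene *Pim1* at 1.61 ± 0.42 (SE, adjusted p = 0.0283) and *Stat5b* at 0.62 ± 0.20 (SE, adjusted p = 0.0376) rose in *Tet2*-KO mice. Of the 16 immediate early genes, a signature that the study named on these same samples and so no independent evidence, *Ier5* rose in both genotypes, at 1.09 ± 0.34 (SE, adjusted p = 0.0454) and 1.93 ± 0.31 (SE, adjusted p = 9.57e-05), and *Junb* in *Tet2*-KO mice at 1.78 ± 0.48 (SE, adjusted p = 0.0328).

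Few granule genes passed the test, and their counts stand beside the shares over all genes (2.03% higher and 4.39% lower in WT, 4.75% and 7.18% in *Tet2*-KO mice). Of 16 primary granule and early neutrophil genes tested, *Ctsg* fell and *Igsf6* (an immunoglobulin-like receptor of myeloid cells) rose in WT, and *Srgn* (serglycin, the proteoglycan that holds granule proteases) rose in *Tet2*-KO mice. The medians were -0.05 and 0.02. *Ctsg* (chr14:56099881-56102574, minus strand) stood at 1312, 1440.1, 958 and 906 CPM in WT vehicle and 688, 739.5, 487 and 543 CPM in WT IL1β mice. All treated WT mice were below all untreated ones, with a log2 change of -0.90 ± 0.22 (SE, adjusted p = 0.0222). Its levels in *Tet2*-KO mice were 666, 663, 1120.0 and 1196 CPM with vehicle and 592, 520.0, 711 and 672 CPM with IL1β, which overlapped, and changed by -0.56 ± 0.22 (SE, adjusted p = 0.113). *Elane* (chr10:79886247-79888215, plus strand) changed by 0.55 ± 0.35 (SE, adjusted p = 0.433) and 0.36 ± 0.34 (SE, adjusted p = 0.569) and *Prtn3* (chr10:79874476-79883174, plus strand) by -0.33 ± 0.24 (SE, adjusted p = 0.510) and -0.45 ± 0.24 (SE, adjusted p = 0.265), none past the threshold. The WT call of *Ctsg* was lost without any of 4 WT mice. With pools as replicates its adjusted p was 0.225.

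Other members of that list did not pass in either genotype. In WT and *Tet2*-KO mice in turn, the log2 changes were 0.91 and 0.12 for *Prss57*, a serine protease of azurophil granules, -0.14 and -0.38 for *Cst7*, a cysteine protease inhibitor, -0.46 and -0.41 for *Lyz2* (lysozyme), -0.36 and -0.0031 for *Serpinb1a*, an elastase inhibitor, 0.83 and -0.37 for *Hp* (haptoglobin), and -0.87 and 0.03 for *Nkg7*. The values were -0.21 and -0.01 for *Plac8*, -0.09 and -0.15 for *Clec12a*, 0.06 and 0.16 for *Rab44* and 0.86 and 0.64 for *Mgst1*. *Igsf6* was at 1.22 ± 0.36 (SE, adjusted p = 0.0434) in WT and *Srgn* at 0.38 ± 0.13 (SE, adjusted p = 0.0433) in *Tet2*-KO mice, and both calls were lost under several other settings. Of 10 late granule genes tested none passed in WT, and *Anxa1* at 0.78 ± 0.22 (SE, adjusted p = 0.0139) and *Lcn2* (lipocalin 2) at 2.33 ± 0.66 (SE, adjusted p = 0.0355) rose in *Tet2*-KO mice. *Lcn2* had a UMI in 6.44% of thinned members and 3.23% of the erythroid cells, and its call was lost on leaving out any of 9 mice.

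Of 18 myeloid transcription factors tested, 6 rose and 1 fell in *Tet2*-KO mice and 11 did not pass, beside 4.75% higher and 7.18% lower over all genes. In WT mice 1 rose, beside 2.03% over all genes. The medians were 0.52 in *Tet2*-KO and 0.37 in WT mice, and no gene of this list differed in its response between genotypes in the test given below. *Gata2* (chr6:88193891-88207032, plus strand), a factor of stem, mast and megakaryocyte-erythroid progenitors, stood at 62.8, 56.9, 81.9 and 49.6 CPM in *Tet2*-KO vehicle and 168, 140.2, 209 and 103 CPM in *Tet2*-KO IL1β mice. The groups did not overlap and the log2 change was 1.24 ± 0.26 (SE, adjusted p = 0.00363). In WT mice *Gata2* stood at 65.7, 116, 78.1 and 124 CPM with vehicle and 175, 97.2, 85.1 and 108 CPM with IL1β with overlap, a change of 0.37 ± 0.26 (SE, adjusted p = 0.480). *Sox4* (chr13:28948919-28953713, minus strand) rose in *Tet2*-KO mice by 0.79 ± 0.17 (SE, adjusted p = 0.00195), *Myb* (chr10:21124935-21160984, minus strand), needed for progenitor self-renewal, by 0.51 ± 0.13 (SE, adjusted p = 0.00589), and *Nfe2* and *Irf1* by 0.53 ± 0.17 (SE, adjusted p = 0.0295) and 0.87 ± 0.29 (SE, adjusted p = 0.0432). The repressor gene *Zeb2* (chr2:44983632-45117395, minus strand) rose in both genotypes, by 0.62 ± 0.15 (SE, adjusted p = 0.00549) and 0.61 ± 0.14 (SE, adjusted p = 0.00348).

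*Irf8* (chr8:120736358-120756694, plus strand) was the factor that fell. It stood at 256, 175, 246 and 302 CPM with vehicle and 153, 151, 88.9 and 122 CPM with IL1β in *Tet2*-KO mice, without overlap, and fell by 0.94 ± 0.26 (SE, log2, adjusted p = 0.0263). In WT mice, at 374, 169, 222 and 228 CPM with vehicle and 130.3, 173, 173 and 284 CPM with IL1β, the groups overlapped and the change was -0.48 ± 0.26 (SE, adjusted p = 0.317). The *Irf8* call was lost without any 1 of 6 *Tet2*-KO mice and without the members of high UMI count. The granulocyte factors *Cebpa*, *Gfi1* and *Cebpe* and the myeloid factor *Spi1* did not pass in either genotype, with log2 changes of 0.11 and 0.15, 0.54 and 0.79, 1.10 and 0.55 and -0.30 and -0.48 in WT and *Tet2*-KO mice in turn. Those of *Runx1*, *Myc*, *Cebpb* and *Klf4* were 0.10 and 0.18, -0.10 and 0.37, 0.41 and -0.12 and 0.50 and -0.14, and those of *Stat3*, *Tfec* and *Per3* were 0.37 and 0.47, -0.24 and 0.78 and -0.27 and 0.75, likewise below the threshold. With a limit of at least 10 *Mpo* UMIs, the calls of *Gata2* and *Sox4* in *Tet2*-KO mice were lost at adjusted p of 0.0986 and 0.0830.

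Of 25 stem and multipotent progenitor genes tested, none rose and 2 fell in WT (2.03% and 4.39% over all genes), and 6 rose and 1 fell in *Tet2*-KO mice (4.75% and 7.18%), with medians of 0.04 and 0.37. For none of the 25 was a difference in response between genotypes called. In *Tet2*-KO mice *Txnip* (chr3:96557957-96561883, plus strand), a thioredoxin inhibitor high in resting cells, stood at 64.5, 44.7, 76.9 and 69.0 CPM with vehicle and 128, 147, 113 and 156 CPM with IL1β, without overlap, and rose by 1.05 ± 0.18 (SE, adjusted p = 9.57e-05). *Kit* stood at 160.5, 146, 125 and 132 CPM with vehicle and 261, 223, 178 and 211 CPM with IL1β, again without overlap. The chromatin organiser *Satb1* rose by 0.83 ± 0.17 (SE, adjusted p = 8.96e-04), the niche factor *Angpt1* by 0.75 ± 0.21 (SE, adjusted p = 0.0163) and *Bcl11a* by 0.46 ± 0.15 (SE, adjusted p = 0.0405). *Cd48* (chr1:171682009-171705258, plus strand), a surface gene gained as stem cells become progenitors, fell in both genotypes, by 0.79 ± 0.19 (SE, log2, adjusted p = 0.00519) and 0.63 ± 0.18 (SE, log2, adjusted p = 0.0161), and *Bex6* fell in WT by 0.92 ± 0.25 (SE, log2, adjusted p = 0.0178). *Hlf*, at 0.74 ± 0.27 (SE, adjusted p = 0.0653) in *Tet2*-KO and 0.01 ± 0.29 (SE, adjusted p = 0.996) in WT, did not pass. Among 7 tested basophil and mast cell markers *Hdc*, which makes histamine, rose in WT by 1.10 ± 0.28 (SE, adjusted p = 0.0102) and in *Tet2*-KO mice by 1.13 ± 0.30 (SE, adjusted p = 0.00980), where *Gata2* also rose. The summed levels of that marker list, given above, overlapped between vehicle and IL1β mice in WT and did not overlap in *Tet2*-KO mice. Whether a change in the mix of cells within the gate or a change per cell gave these values cannot be told apart in summed counts.

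Ribosomal protein genes made up the largest group that fell. Of 81 tested, 59 fell in WT and 38 in *Tet2*-KO mice, beside 4.39% and 7.18% over all genes, with median log2 changes of -0.45 and -0.31, while *Rpl37a* and *Rpl41* rose in both. *Rpl29* (chr9:106429454-106431568, plus strand), a large-subunit protein, stood at 1432, 1245, 1219.7 and 1216 CPM in WT vehicle and 771, 723, 557 and 539 CPM in WT IL1β mice, and at 1115, 1041, 1621 and 1557 CPM with vehicle and 671, 767, 773 and 820.3 CPM with IL1β in *Tet2*-KO mice. Vehicle and IL1β mice did not overlap in either genotype, and the gene fell by 0.98 ± 0.13 (SE, log2, adjusted p = 4.66e-06) and 0.82 ± 0.13 (SE, log2, adjusted p = 5.73e-05). *Rpl37a* rose by 0.27 ± 0.09 (SE, adjusted p = 0.0475) and 0.35 ± 0.09 (SE, adjusted p = 0.00549). Ribosomal protein genes have many near-identical processed pseudogenes, and how reads were divided among such copies leaves single members uncertain. In the granulocyte progenitor gate the median of this list was -0.44 in WT and -0.28 in *Tet2*-KO mice, and in the multipotent gate -0.37 and -0.30.

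Part of the genes of the respiratory chain and of ribosome assembly fell as well. Of 88 nuclear respiratory chain genes 14 fell in WT and 33 in *Tet2*-KO mice and none rose, beside the same 4.39% and 7.18%. *Atp5g1* (chr11:96068852-96075670, minus strand), which encodes the membrane ring of ATP synthase, stood at 723, 649, 648 and 647 CPM in WT vehicle and 385, 397, 273 and 308 CPM in WT IL1β mice, without overlap in either genotype, and fell by 0.98 ± 0.15 (SE, log2, adjusted p = 2.57e-05) in WT and 1.09 ± 0.15 (SE, log2, adjusted p = 6.23e-06) in *Tet2*-KO mice. Of 29 ribosome biogenesis genes 5 fell in WT and 12 in *Tet2*-KO mice, among them *Nhp2* and *Nop10* of the RNA pseudouridylation complex, with *Nhp2* at -0.69 ± 0.17 (SE, adjusted p = 0.00978) and -1.04 ± 0.17 (SE, adjusted p = 1.12e-04), and the RNA methyltransferase gene *Fbl* at -0.53 ± 0.14 (SE, adjusted p = 0.0136) and -0.79 ± 0.14 (SE, adjusted p = 1.30e-04). Of 13 transcripts of the mitochondrial genome, a list added after values were seen, 3 rose in each genotype and 10 did not pass, beside 2.03% and 4.75% higher over all genes, with *mt-Co1* at 0.64 ± 0.11 (SE, adjusted p = 4.14e-04) and 0.68 ± 0.11 (SE, adjusted p = 1.77e-04). The median mitochondrial share of UMIs in gated cells was 3.49 to 4.09% in WT vehicle, 5.16 to 5.47% in WT IL1β, 3.41 to 4.56% in *Tet2*-KO vehicle and 4.94 to 5.97% in *Tet2*-KO IL1β mice, so it was higher in every IL1β mouse than in every vehicle mouse. The same medians over all assigned cells ran from 3.37 to 4.05% with vehicle and from 4.55 to 5.45% with IL1β. Its part in the fall of these groups was not tested.

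The largest falls among the named genes included genes of nucleotide, histone and protein handling. *Hist1h1e* (chr13:23620629-23622558, minus strand), a linker histone, fell by 1.52 ± 0.19 (SE, log2, adjusted p = 1.00e-06) in WT and 1.30 ± 0.18 (SE, log2, adjusted p = 6.31e-06) in *Tet2*-KO mice, and the core histone genes *Hist1h2ae* and *Hist1h2an* in WT by 1.64 ± 0.29 (SE, log2, adjusted p = 0.00189) and 1.46 ± 0.36 (SE, log2, adjusted p = 0.00807). *Dctpp1* (chr7:127256959-127260709, minus strand), which clears dCTP, stood at 322, 338, 257 and 241 CPM in WT vehicle and 123, 109.9, 102 and 136 CPM in WT IL1β mice, and at 248, 171, 283 and 321 CPM with vehicle and 83.8, 108, 82.1 and 117 CPM with IL1β in *Tet2*-KO mice. The gene fell by 1.28 ± 0.17 (SE, log2, adjusted p = 3.70e-06) and 1.37 ± 0.17 (SE, log2, adjusted p = 1.20e-06). *Sdf2l1* (chr16:17130138-17132383, minus strand), part of an endoplasmic reticulum chaperone complex, fell by 1.30 ± 0.24 (SE, log2, adjusted p = 2.98e-04) and 1.67 ± 0.23 (SE, log2, adjusted p = 5.84e-06). *Ubb*, which encodes ubiquitin, fell in WT by 1.2 ± 0.16 (SE, log2, adjusted p = 9.56e-06). Further genes named in *Tet2*-KO mice, at log2 changes of -1.52 to -1.30, were the mitochondrial *Mrps18b*, *Gfer* and *Sco2*, the RNase P subunit *Pop1* and *Aven*, an inhibitor of apoptosis. In WT mice *Card19*, *Lsm10*, a part of the histone mRNA processing particle, and *Spata24* fell by 1.62, 1.6 and 1.33 on the log2 scale.

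Of 43 S phase genes 4 fell in WT and 7 in *Tet2*-KO mice and none rose, with medians of -0.22 and -0.31, where 4.39% and 7.18% of all genes fell. The gene of thymidylate synthase, *Tyms*, fell by 0.73 ± 0.19 (SE, log2, adjusted p = 0.0107) and 1.04 ± 0.19 (SE, log2, adjusted p = 1.77e-04), and the replication factor *Gins2* by 1.02 ± 0.29 (SE, log2, adjusted p = 0.0246) and 1.01 ± 0.29 (SE, log2, adjusted p = 0.0165). Of 50 G2M genes 1 rose in WT (*Dlgap5*, at 0.84 ± 0.26 (SE, adjusted p = 0.0442), lost under 9 of 11 other settings), and 3 fell in *Tet2*-KO mice (*Tubb4b*, *Birc5* and *Cbx5*), a share near that over all genes. The stress and glycolysis counts in *Tet2*-KO mice stood above that 7.18%. Of 23 genes of endoplasmic reticulum chaperones and the unfolded protein response 1 rose and 2 fell in WT, and 5 fell in *Tet2*-KO mice, including the chaperone gene *Hspa5* at -0.60 ± 0.18 (SE, adjusted p = 0.0323) and *Manf* at -0.91 ± 0.16 (SE, adjusted p = 1.07e-04). Among 12 heat shock genes none passed in WT and 5 fell in *Tet2*-KO mice, among them the mitochondrial chaperone pair *Hspd1* and *Hspe1* at -0.55 and -0.52 (log2). Of 13 glycolysis genes 1 fell in WT, and 3 fell and 1 rose in *Tet2*-KO mice, with *Ldha* at -0.79 ± 0.19 (SE, adjusted p = 0.00778).

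Of 13 tested interferon response genes 2 fell in WT (4.39% over all genes) and 3 in *Tet2*-KO mice (7.18%), with medians of -0.07 and 0.09. *Bst2* (tetherin) fell by 0.83 ± 0.18 (SE, log2, adjusted p = 0.00204) and 0.62 ± 0.17 (SE, log2, adjusted p = 0.0104), *Ifitm2* by 0.74 ± 0.14 (SE, log2, adjusted p = 3.99e-04) and 0.53 ± 0.14 (SE, log2, adjusted p = 0.00761), and *Ifi27l2a* in *Tet2*-KO mice by 1.52 ± 0.39 (SE, log2, adjusted p = 0.00761). Of 16 MHC genes 2 fell in WT and 1 in *Tet2*-KO mice, with the immunoproteasome gene *Psmb8* at -0.85 ± 0.14 (SE, adjusted p = 4.32e-05) and -0.92 ± 0.14 (SE, adjusted p = 1.10e-05). Of 15 homing and adhesion genes the tetraspanin gene *Cd53* rose in both, at 0.62 ± 0.18 (SE, adjusted p = 0.0279) and 0.70 ± 0.17 (SE, adjusted p = 0.00580), and *Cd52* fell in *Tet2*-KO mice at -0.78 ± 0.16 (SE, adjusted p = 0.00129). Over all genes, 2.03% rose in WT, and 4.75% rose and 7.18% fell in *Tet2*-KO mice. Of 12 DNA methylation and demethylation enzymes none passed in WT, and in *Tet2*-KO mice *Gadd45b* rose and *Uhrf1*, which brings DNMT1 to replicating DNA, fell at -0.59 ± 0.18 (SE, adjusted p = 0.0215). These counts were near the *Tet2*-KO shares over all genes.

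**Figure D4:**
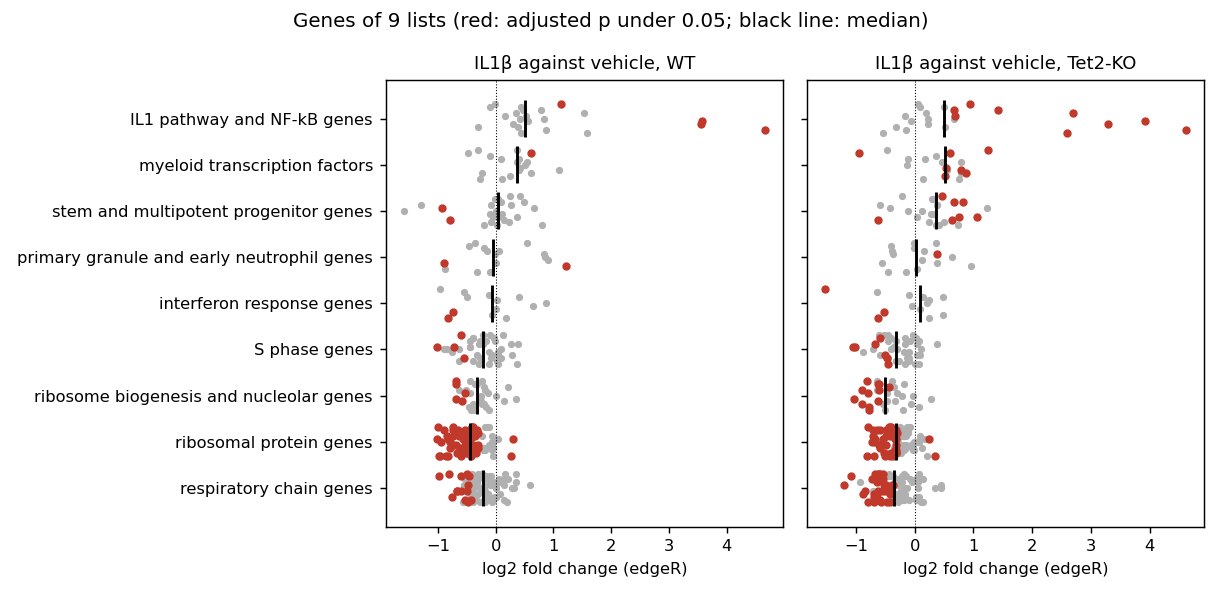
Log2 fold changes (edgeR) with IL1β of the tested genes of 9 lists in WT (left) and *Tet2*-KO mice (right). Each point is 1 gene, red points have an adjusted p under 0.05 and black lines mark the medians, which for ribosomal protein genes lie at -0.45 and -0.31 and for IL1 pathway and NF-κB genes at 0.50 and 0.51.

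The comparison of genotypes asked what loss of *Tet2* changed in the same cells. With vehicle 0 of 7692 genes passed (0.0%), with 237 at an unadjusted p under 0.05 in edgeR and 0 called by DESeq2. With IL1β 5 passed (0.065%), of which 3 were higher and 2 lower in *Tet2*-KO mice, and DESeq2 called 0. The count with IL1β was 0 without *Tet2*-KO IL1β mouse 2, 10 without WT IL1β mouse 1, 3 without WT IL1β mouse 2 or *Tet2*-KO IL1β mouse 1, and 2 without WT IL1β mouse 4. Since these 2 comparisons use other mice than one another but share their mice with the IL1β comparisons, the values of each are given side by side.

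*Hmga2* (chr10:120361275-120476469, minus strand), which encodes a chromatin architectural protein of fetal and self-renewing stem cells, was the gene of the stem list that was higher in *Tet2*-KO mice. It stood at 5.55, 4.23, 6.65 and 4.00 CPM in WT IL1β and 24.7, 26.7, 30.8 and 24.3 CPM in *Tet2*-KO IL1β mice, and at 10.1, 8.89, 18.4 and 14.6 CPM in WT and 36.6, 36.6, 28.5 and 55.0 CPM in *Tet2*-KO vehicle mice. All *Tet2*-KO mice were above all WT mice of both treatments. The log2 difference was 2.20 ± 0.42 (SE, adjusted p = 0.0113) with IL1β and 1.49 ± 0.31 (SE, adjusted p = 0.06) with vehicle. In thinned cells *Hmga2* was found in 3.78, 2.16, 11.5 and 8.38% of WT vehicle, WT IL1β, *Tet2*-KO vehicle and *Tet2*-KO IL1β members and in 0.157% of the erythroid cells.

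*Chdh* (chr14:30009023-30040527, plus strand), choline dehydrogenase of the mitochondrial betaine pathway, was lower in *Tet2*-KO mice. With IL1β it stood at 36.0, 50.7, 37.2 and 24 CPM in WT and 4.93, 8.56, 6.84 and 10.1 CPM in *Tet2*-KO mice, without overlap, a difference of -2.12 ± 0.37 (SE, adjusted p = 0.00492). The *Tet2*-KO IL1β mice held 16 *Chdh* UMIs in all and the WT IL1β mice 72, a ratio of summed CPM of 0.221 with a counting interval of 0.120 to 0.383. With vehicle it stood at 35.4, 71.1, 29.1 and 36.5 CPM in WT and 26.2, 20.3, 19.8 and 12.9 CPM in *Tet2*-KO mice, also without overlap, a difference of -0.93 ± 0.30 (SE, adjusted p = 0.999985). *Gimap6* (chr6:48701582-48708225, minus strand), a GTPase of immune cells, stood at 15.2, 29.6, 19.9 and 16.0 CPM in WT IL1β and 88.8, 55.6, 41.0 and 36.5 CPM in *Tet2*-KO IL1β mice and differed by 1.45 ± 0.30 (SE, adjusted p = 0.0313). With vehicle its groups overlapped and the difference was 0.11 ± 0.31 (SE, adjusted p = 0.999985). The other 2 genes that passed are predicted transcripts. Without *Tet2*-KO IL1β mouse 2 the calls of *Hmga2*, *Chdh* and *Gimap6* were lost. They were also lost with the pool as a random effect in limma, which called 0 genes.

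Whether the response to IL1β differed by genotype was tested as an interaction. Of 7692 genes 0 passed (0.0%), with 301 at an unadjusted p under 0.05 in edgeR and 0 called by DESeq2, so the larger number of genes called in *Tet2*-KO mice was not shown to be a different response. For *Gata2*, *Kit* and *Irf8*, each called in *Tet2*-KO mice alone, the difference between the genotypes' log2 changes was 0.87 ± 0.37 (SE, adjusted p = 0.9998), 0.48 ± 0.24 (SE, adjusted p = 0.9998) and -0.46 ± 0.36 (SE, adjusted p = 0.9998). For *Ctsg*, called in WT alone, it was 0.34 ± 0.31 (SE, adjusted p = 0.9998).

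**Figure D5:**
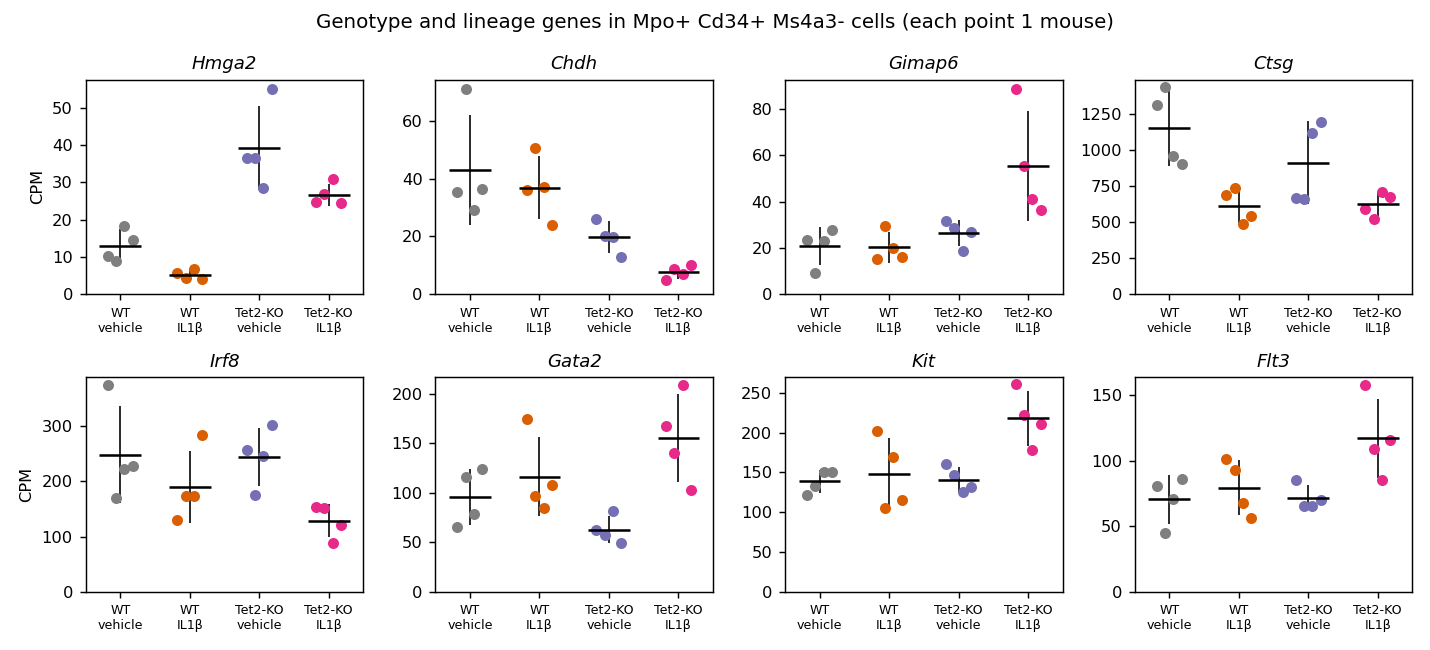
Levels (CPM) of *Hmga2*, *Chdh*, *Gimap6*, *Ctsg*, *Irf8*, *Gata2*, *Kit* and *Flt3* in *Mpo*+ *Cd34*+ *Ms4a3*- cells, 1 point per mouse, with group means (horizontal lines) and 1 SD of 4 mice (vertical lines). *Hmga2* is higher in all *Tet2*-KO than in all WT mice, and *Chdh* with IL1β runs from 4.93 to 10.1 CPM in *Tet2*-KO against 24 to 50.7 CPM in WT mice.

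The response to IL1β was compared with that of the neighbouring gates in the same mice, with the mouse as a block and the genes of either gate's rule left untested. Against granulocyte progenitors 1 of 9458 genes differed in WT (0.0106%) and 3 in *Tet2*-KO mice (0.0317%). *Ifitm1*, an interferon-induced membrane gene of early progenitors, stood at 350.3, 196, 334 and 263 CPM in the gated cells of WT vehicle and 538, 431, 201 and 224 CPM in those of WT IL1β mice, and its response was lower than in granulocyte progenitors by 0.86 ± 0.14 (SE, log2, adjusted p = 5.77e-04). *Ier5* stood at 22.7, 24.4, 14.9 and 18.3 CPM with vehicle and 118, 49.2, 85.5 and 68.9 CPM with IL1β in the gated cells of *Tet2*-KO mice and at 17.4, 12.2, 13.1 and 12.9 CPM with vehicle and 18.6, 18.2, 12.7 and 10.9 CPM with IL1β in granulocyte progenitors. It rose in the gated cells and overlapped between treatments in granulocyte progenitors, a difference of 1.82 ± 0.30 (SE, adjusted p = 3.05e-04). The purinergic receptor gene *P2rx4* differed by 1.32 ± 0.25 (SE, adjusted p = 0.00469) and the chaperone gene *Hspa8* by 0.52 ± 0.08 (SE, adjusted p = 1.23e-05). The *Tet2*-KO count was 61 without *Tet2*-KO IL1β mouse 2, 11 without *Tet2*-KO vehicle mouse 2, 6 without WT vehicle mouse 2 and 5 without WT IL1β mouse 1. The WT count was 5 without WT IL1β mouse 1, 3 without *Tet2*-KO IL1β mouse 2, and 2 without WT vehicle mouse 1 or *Tet2*-KO IL1β mouse 1 or 3.

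Against multipotent cells 6 of 7948 genes differed in WT (0.0755%) and 5 in *Tet2*-KO mice (0.0629%). In WT the difference in log2 change, gated minus multipotent cells, was negative for all 6. *Ctsg*, which fell in the gate, stood at 145, 228, 89.5 and 113 CPM in multipotent cells of WT vehicle and 197, 250.3, 166 and 86.6 CPM in those of WT IL1β mice, where the groups overlapped, a difference in response of -1.35 ± 0.17 (SE, adjusted p = 7.89e-10). *Cpa3* stood at 113, 391, 141 and 308 CPM with vehicle and 252, 228, 148 and 83.9 CPM with IL1β in the gated cells of WT mice and at 9.91, 12.0, 11.2 and 12.6 CPM with vehicle and 46.3, 60.4, 45.2 and 20.0 CPM with IL1β in multipotent cells. It overlapped between treatments in the gate and did not in multipotent cells, and its response differed by -2.05 ± 0.36 (SE, adjusted p = 2.37e-04). The chemokine gene *Ccl9* differed by -1.39 ± 0.21 (SE, adjusted p = 2.31e-06), the amine transporter gene *Slc18a2* by -1.96 ± 0.44 (SE, adjusted p = 0.0187) and the kinase gene *Mapk6* by -1.67 ± 0.37 (SE, adjusted p = 0.0187). The WT count was 10 without WT IL1β mouse 2, and 3 without WT vehicle mouse 4 or WT IL1β mouse 3.

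In *Tet2*-KO mice *Satb1* rose in the gate, from 124, 65.0, 91.8 and 98.1 to 227, 159, 147 and 172 CPM, and stood at 316, 295, 245 and 221 CPM with vehicle and 237, 254, 199 and 160.4 CPM with IL1β in multipotent cells. The vehicle and IL1β mice did not overlap in the gate, and the response differed by 1.08 ± 0.20 (SE, adjusted p = 8.60e-04). The response of *Irf8* was lower in the gate by 0.76 ± 0.17 (SE, log2, adjusted p = 0.0361), a call lost on leaving out any of 11 mice, and that of *Kctd14* by 2.56 ± 0.55 (SE, log2, adjusted p = 0.0116). *Myl10* differed by 4.00 ± 0.80 (SE, adjusted p = 0.00341), in a gene below the filter in the gated cells alone. *H2-Aa*, of MHC class II, had 15 UMIs in the gated cells of *Tet2*-KO vehicle mice and 0 in those of *Tet2*-KO IL1β mice, and in multipotent cells it stood at 3.9, 0, 41.0 and 10.5 CPM with vehicle and 9.86, 47.9, 222 and 20.4 CPM with IL1β, with 1 mouse far above the rest (adjusted p 8.60e-04). The count was 13 without *Tet2*-KO vehicle mouse 2, and 12 without *Tet2*-KO vehicle mouse 4 or *Tet2*-KO IL1β mouse 2. The response of *Nfkbia* was not called as different from either gate in either genotype, with adjusted p of 0.0968 or more. Its log2 change was larger than in granulocyte progenitors by 1.14 ± 0.38 (SE, adjusted p = 0.787) in WT and by 1.90 ± 0.34 (SE, adjusted p = 0.0968) in *Tet2*-KO mice, neither past the threshold. In WT mice it stood at 48.1, 43.3, 31.0 and 25 CPM with vehicle and 74.9, 301, 161 and 179 CPM with IL1β in granulocyte progenitors and at 69.4, 60.0, 61.5 and 58.3 CPM with vehicle and 60.9, 604, 918 and 819 CPM with IL1β in multipotent cells.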

How the data were processed

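The authors aligned reads of 8 gene expression libraries and their hashtag libraries to mm10 with Cell Ranger 3.1.0, per the processing notes of the submitters, and deposited UMI counts per gene or hashtag and cell, not normalised. Cells with at least 750 genes and at most 10% mitochondrial UMIs were kept, and hashtags were called with HTODemux (Seurat 5.3.0). Doublets within a mouse were not called. UMIs of gated cells were summed per mouse, 4 mice in each of 4 groups, and tested in edgeR 4.0.16 (R 4.3.3; TMM scaling, filterByExpr, robust quasi-likelihood test, Benjamini-Hochberg adjustment at 0.05). The 8 genes of the gate stayed in library sizes and were not tested. Tests between gates added a gate-by-treatment term with the mouse as a block. Shares were compared with two-sided exact permutation tests. The fit was tested on simulated data first. The groups were the labelled ones, and precision is limited by 117494 to 997895 UMIs per mouse.

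Alternatives were DESeq2 1.42.0, RLE scaling, no filter on low counts, a hashtag ratio rule of at least 3, pools as replicates, the replicate number as a block, limma 3.58.1 voom with the pool as a random effect, *Mpo* limits of 3 and 10 UMIs, gated cells over 2 times the median UMIs left out, sex by *Xist* as a covariate, thinning to 3000 UMIs and leaving out each mouse. The members and gene lists were chosen with earlier results of these data known. Genes were named by a rule: up to 10 each way with the largest fold among called genes whose groups did not overlap and whose mean was at least 20 CPM, at most 6 called genes per list by smallest p, the tested members of the granule and transcription factor lists, and up to 5 each way between gates. Other genes were named after their values were seen, and predicted and sex-linked genes were counted but not named. Some other genes that met the rule are counted but not reported here. *Cebpd*, *Pimreg*, *Jpt1*, *Itgam* and *Trbc2* of the lists were not analysed here. Promoters came from RefSeq (GRCm38.p6) and gene positions from a GRCm38 annotation, the assembly that mm10 names.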

Additional observations from a re-analysis of the deposited data

Results flagged for a closer look

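Among 168 groups of 4 mice whose values were looked at, 7 held 1 mouse far from the other 3, and chance alone gives about 1 in 20. In *Tet2*-KO vehicle mice these were *Nfkbiz* with a mouse at 76.7 CPM, *Birc3* with a mouse at 3.23 CPM and *Cxcl10* with a mouse at 1.24 CPM where the others had none. In WT vehicle mice they were *Rel* with a mouse at 8.89 CPM, *Cxcl2* with a mouse at 3.37 CPM, *Rpl29* with a mouse at 1432 CPM and *Atp5g1* with a mouse at 723 CPM.

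The response to IL1β differed between gates, by edgeR's gate-by-treatment term, for 14 named genes. Against granulocyte progenitors, the log2 difference in response was -0.86 for *Ifitm1* in WT, and 1.82 for *Ier5*, 1.32 for *P2rx4* and 0.52 for *Hspa8* in *Tet2*-KO mice. Against multipotent cells it was -2.05 for *Cpa3*, -1.96 for *Slc18a2*, -1.67 for *Mapk6*, -1.39 for *Ccl9* and -1.35 for *Ctsg* in WT mice. In *Tet2*-KO mice it was 4.00 for *Myl10*, which was below the filter on low counts in the gated cells alone, 1.08 for *Satb1*, -6.39 for *H2-Aa*, -2.56 for *Kctd14* and -0.76 for *Irf8*, with *H2-Aa* at 0 UMIs in the gated cells of IL1β mice, so that its value depends on the prior count and is no bound.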

How the results depend on the processing

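Of 180 pairs of a named gene and a comparison, no log2 change turned its sign in 1834 values under other settings or in 2878 values with 1 mouse left out, and the call was lost in 213 and 404 of them. DESeq2 gave no adjusted p for another 15. These pairs were chosen among called genes and the settings reuse the same mice, so a turned sign was unlikely from the start. For the response to IL1β, 192 to 549 genes were called in WT and 399 to 969 in *Tet2*-KO mice with 1 mouse left out, and DESeq2 called 598 in *Tet2*-KO mice. The genotype comparison with vehicle gave 4 genes without a filter on low counts, 2 with the hashtag ratio rule, 2 with pools as replicates, 2 with an *Mpo* limit of 3 UMIs and 0 to 1 with a mouse left out. With IL1β it gave 33 without the filter, 20 with the ratio rule, 10 with pools, 0 with DESeq2, 0 with limma's pool effect and 0 to 10 with a mouse left out. Between gates, no filter gave 5 and 14 genes against granulocyte progenitors and 10 and 12 against multipotent cells, in WT and *Tet2*-KO mice, and leaving out a mouse gave 1 to 5, 2 to 61, 3 to 10 and 4 to 13. The share of gated cells in WT differed by 0.0575 percentage points with pools. The genotype difference in shares turned sign with a mouse left out, from -0.558 to 0.196 with vehicle and from -0.604 to 0.0307 with IL1β. With vehicle it was 0.607 with all cells of each pool and 0.42 with an *Mpo* limit of 3 UMIs, and with thinned cells 0.095 with IL1β. The cause of these moves was not tested.

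The replicate numbers did not pair the mice. Over 24 same-numbered pairs the correlation of deviations ran from -0.113 to 0.209 (median 0.016), against a median of -0.00395 for other pairs. With the replicate number as a block the fit called 460 genes for IL1β in WT and 875 in *Tet2*-KO mice, 3 and 9 between genotypes with vehicle and IL1β, and 0 for the interaction. Depth of 24 to 191 gated cells per mouse limited the test of genes near 1 UMI per mouse.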

Other observations

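Marker lists of other lineages were tested within the gate with the same fit. With IL1β, none of the tested stem cell (3), erythroid (11), megakaryocyte (6), eosinophil (1), monocyte and macrophage (4), B and lymphoid progenitor (3) or T and NK cell (1) markers passed in WT or in *Tet2*-KO mice. All 6 megakaryocyte markers had positive log2 changes in WT, with a median of 3.07. Their summed level in WT vehicle mice was only 139 to 171 CPM. Genes low in these mice can pass the filter on low counts through other groups, so a positive sign against WT vehicle mice was partly fixed in advance. Of 4 dendritic cell markers *Bst2* fell in WT, and *Bst2* and *Irf8* fell while *Flt3* rose in *Tet2*-KO mice. Of 14 markers of immature myeloid progenitors themselves, *Ctsg* and *Cd48* fell in WT, and *Kit*, *Sox4* and *Myb* rose and *Cd48* fell in *Tet2*-KO mice. Over all genes tested, 2.03% rose and 4.39% fell in WT, and 4.75% rose and 7.18% fell in *Tet2*-KO mice. Between genotypes, none of the members of any list passed with vehicle, and with IL1β *Hmga2* was the list member that passed. Below the threshold, the log2 differences of *Tet2*-KO against WT mice were positive for 14 of 16 immediate early genes with vehicle (median 0.80) and for 16 of 16 with IL1β (0.53), in a list the study chose on these samples. They were positive for 6 of 6 megakaryocyte markers with vehicle (4.51), where the summed level ranged widely between mice and the filter has the same limit. They were also positive for 23 of 25 stem and multipotent genes with IL1β (0.48), the called *Hmga2* included. That list holds *Hmga2*, *Hlf*, *Erg*, *Meis1*, *Txnip* and *Kdm6b*, which the study named as higher in *Tet2*-KO stem cells of these samples. The differences were also positive for 12 of 13 interferon response genes with vehicle (0.22) and with IL1β (0.37). With IL1β they were positive for 14 of 16 MHC genes (0.26) and 70 of 81 ribosomal protein genes (0.10). Other lists leaned the other way with IL1β. The differences were positive for 3 of 50 G2M genes (-0.26), 4 of 23 endoplasmic reticulum chaperone and unfolded protein genes (-0.13) and 21 of 88 respiratory chain genes (-0.15). The medians over all genes tested were 0.01 in both comparisons. The share of positive differences over all genes was not counted, and only some of the lists are given here. In the multipotent gate the differences were positive for 16 of 16 immediate early genes in both comparisons. With IL1β they were positive there for 21 of 25 stem and multipotent genes and 7 of 51 G2M genes.

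In the gated cells, the share with *Elane* in thinned cells was 37.0% in WT vehicle, 55.2% in WT IL1β, 33.0% in *Tet2*-KO vehicle and 46.2% in *Tet2*-KO IL1β cells, while that with *Ctsg* was 84.9, 79.3, 80.5 and 72.0%. In the erythroid cells the share with *Elane* was also higher with IL1β, at 6.96 and 13% in WT and at 10.6 and 15% in *Tet2*-KO mice, and that with *Ctsg* was 6.57 and 10.0%, and 9.35 and 9.35%. These shares are counted over cells and were not tested.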
